A study of Rattus norvegicus and Mus musculus with 22 samples.

Results

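Whole lung of rats lacking Il6 (labelled IL6-KO) was compared with whole lung of wild-type (WT) rats, all taken at day 56 of the Sugen-hypoxia model. The comparison uses 6 of the 22 samples of the series, 3 libraries per genotype chosen by their labels, and every one of the 22081 gene symbols in the count table of that day. In the Sugen-hypoxia model a blocker of the VEGF receptor is combined with low oxygen, and the lung arteries narrow progressively. All 6 libraries carry this treatment, so neither group stands for an untreated lung. The labels give no strain, sex or age, do not say which part of Il6 is missing, and number the libraries without saying that each is a separate animal. Errors and p-values therefore describe the spread between these samples, which may be partly technical.

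Interleukin 6 is a cytokine of inflammation that binds its receptor (Il6r), and the pair then engages the shared signalling chain gp130 (Il6st). This activates the transcription factor STAT3, which switches on genes of inflammation and growth together with inhibitors such as SOCS3 that damp the same pathway. A soluble form of the receptor lets IL-6 act on cells that have gp130 alone, including cells of the vessel wall, and IL-6 is raised in the blood of patients with pulmonary hypertension. In whole tissue, fewer cells of a type and less RNA per cell cannot be told apart.

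Total counts ran from 14415060 in WT 3 to 22961232 in WT 2, and 14475 genes had enough counts to be tested. The 6 libraries carried lung markers at high level, with genes of alveolar type 2 cells, which make surfactant, summing to between 51073 and 67648 CPM (counts scaled to a common library size). The male-specific genes Eif2s3y and Kdm5d summed to 130.1, 119.5 and 145.0 CPM in WT and to 127.0, 150.1 and 146.6 CPM in IL6-KO. None of the 6 libraries thus lacked male transcripts. WT 3 stood apart from the other WT libraries. Over 11782 genes with a mean of at least 5 CPM, WT 1 and WT 2 lay nearer to the mean of the other WT libraries than to the IL6-KO mean in 67.7% and 67.5% of genes, whereas WT 3 did so in 31.8%. For the IL6-KO libraries, each left out of its own mean, the share nearer to WT was 44.6%, 41.5% and 33.8%. Results that rest on WT 3 are therefore given with and without it.

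Il6 itself was barely detected. Its count was 6, 6 and 5 in WT 1, 2 and 3 against 0, 2 and 3 in IL6-KO 1, 2 and 3, too few to be tested. The 3 WT values all exceeded the IL6-KO values, and 0 counts in IL6-KO 1 allow up to 0.178 CPM by counting error alone. At day 7 the counts were 5, 11 and 6 in WT and 8, 5 and 2 in IL6-KO, which overlap. Reads from outside a deleted part still count, so these few counts do not check the genotype labels. Of the 10 tested protein-coding genes that follow Il6 along its chromosome in the GRCr8 gene table, 0 were called and 0 had groups that did not overlap. The lowest adjusted p of the 10 was 0.454. Over all genes 0.0138% were called and 16.8% had groups that did not overlap, so 10 genes are too few to tell from these shares.

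The receptor chains Il6r and Il6st kept overlapping levels. Il6r, the ligand-binding chain, stood at 87.9, 73.8 and 100.1 CPM in WT 1, 2 and 3 and at 121, 86.1 and 67.9 CPM in IL6-KO 1, 2 and 3 (log2 fold change, IL6-KO against WT, 0.07, SE 0.215, adjusted p = 0.901 in edgeR). Its sign turned without WT 2 (-0.04) and without IL6-KO 1 (-0.18). Il6st, the gp130 gene, stood at 247, 230.2 and 373 CPM in WT and at 354, 389 and 329.6 CPM in IL6-KO (0.34, SE 0.189, adjusted p = 0.488). WT 3 lay inside the IL6-KO range here, and without it Il6st was called higher (0.59, adjusted p = 0.0245), though not when a correction for transcript length was added to that fit (0.17, adjusted p = 0.447). Lifr, the leukaemia inhibitory factor receptor that pairs with gp130, had the same order among the WT libraries, with 146, 90.5 and 259.5 CPM in WT and 337, 292 and 354 CPM in IL6-KO (0.99, SE 0.344, adjusted p = 0.414). The 3 Lifr values of IL6-KO all lay above the WT values, and WT 3 was the nearest to them. Without WT 3 Lifr was called higher (1.47, adjusted p = 0.0239), but not when the length correction was added to that fit. At day 7 Lifr was also called higher in IL6-KO (0.53, adjusted p = 0.0208). Stat3 was even across the 6 libraries, from 281 to 314 CPM (-0.05, SE 0.0841, adjusted p = 0.803).

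The feedback inhibitors of the pathway block cytokine receptors once STAT factors have induced them. Socs3 stood at 18.8, 14.5 and 15.4 CPM in WT and at 25.8, 24.7 and 19.8 CPM in IL6-KO, without overlap of the groups but short of the threshold (0.53, SE 0.151, adjusted p = 0.401). At day 7 it was called in the opposite direction, with 17.6, 20.9 and 19.6 CPM in day 7 WT and 12.2, 9.45 and 11.7 CPM in day 7 IL6-KO (-0.80, adjusted p = 0.0178). Cish went the other way, with 39.4, 29.6 and 20.9 CPM in WT and 21.5, 19.7 and 21.2 CPM in IL6-KO (-0.53, SE 0.213, adjusted p = 0.431). Socs1 stood at 8.37, 8.05 and 3.20 CPM in WT and at 3.59, 4.80 and 4.12 CPM in IL6-KO (-0.66, SE 0.356, adjusted p = 0.477). For both genes WT 3 was at or below the IL6-KO level, and without WT 3 both were called lower (Cish -0.73, adjusted p = 0.0331, Socs1 -0.97, adjusted p = 0.0302). Both calls were lost when the length correction was added to that fit (Cish -0.67, adjusted p = 0.0665, Socs1 -0.93, adjusted p = 0.0616). Of 25 tested genes of the IL-6 and gp130 list, 0 were called, against 0.0138% of all genes. The list's median log2 fold change was 0.03 beside -0.01 over all genes, and 2 of its genes were higher and 1 lower without overlap of the groups. Over all genes these shares were 8.3% and 8.55%.

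Cish is shown because its promoter carries the recognition element of STAT factors several times. The element TTCNNNGAA, which reads the same on both strands, was searched in RefSeq promoter windows of build GRCr8, each 300 bases long from 250 before to 50 after the gene start. It occurred in 8.87% of all 33469 windows. In the window below capitals mark its 4 matches, which start at positions 10, 21, 115 and 132 counted from the 5′ end.
Cish promoter, chr8:116850719-116851018, plus strand: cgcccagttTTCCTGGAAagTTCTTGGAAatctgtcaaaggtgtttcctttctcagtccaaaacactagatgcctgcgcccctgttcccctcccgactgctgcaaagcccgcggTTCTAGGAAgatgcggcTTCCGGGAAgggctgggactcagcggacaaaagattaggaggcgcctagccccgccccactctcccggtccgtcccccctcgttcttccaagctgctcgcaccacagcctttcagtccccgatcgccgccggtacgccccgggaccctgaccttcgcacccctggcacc
Of the 12 named genes lowest in p on the lower side, 8 had a window and 0 held the element. Of the 12 on the higher side 11 had a window and 2 held it (Piezo2 and Vwa2). Together this was close to the share of all windows. Among STAT3 target genes 4 of 18 with a window held it. The Socs1 window held 1 match and that of Socs3 none. A match is a stretch of letters and not a measured binding site.

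Among STAT3 target genes, 0 of 22 tested were called (median -0.02), with 1 higher and 4 lower without overlap. The shares of all genes were 8.3% higher and 8.55% lower. Steap4, a metalloreductase gene induced by inflammation, stood at 31.3, 46.1 and 44.3 CPM in WT and at 28.9, 25.3 and 23.6 CPM in IL6-KO (-0.65, SE 0.166, adjusted p = 0.401). Myc, the growth regulator, stood at 35.4 to 44.0 CPM in WT and at 26.6 to 30.7 CPM in IL6-KO (-0.44, SE 0.114, adjusted p = 0.401). Bcl3, a partner of NF-kappa-B, stood at 13.5 to 19.2 CPM in WT and at 12.8 to 12.96 CPM in IL6-KO (-0.38, SE 0.15, adjusted p = 0.428). These 3 genes all lay lower without overlap, and none passed the threshold with 6 libraries. Without WT 3 the test called 4 of the 22 lower and 0 higher, beside 3.23% and 5.4% of all genes. With the length correction as well it called 2 of 21 lower and 0 higher, beside 1.34% of all genes in either direction.

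With all 6 libraries, 2 genes passed, both lower in IL6-KO. Ephx2, which encodes soluble epoxide hydrolase, the enzyme that turns vasodilating epoxy fatty acids into weaker diols, stood at 19.3, 18.3 and 19.5 CPM in WT and at 2.37, 2.66 and 2.13 CPM in IL6-KO. The log2 fold change was -2.99 (SE 0.144, adjusted p = 0.00142), with each group tight around its own level. The Ephx2 call held whichever single library was left out, with adjusted p between 0.00626 and 0.0310. Slpi, a secreted inhibitor of neutrophil elastase and other leukocyte proteases, stood at 9.05, 10.4 and 12.99 CPM in WT and at 1.34, 1.04 and 1.44 CPM in IL6-KO (-3.08, SE 0.225, adjusted p = 0.0142). The Slpi call was lost without WT 2 (adjusted p = 0.0710) and without IL6-KO 1, 2 or 3 (0.123, 0.143 and 0.0802), while the fold change stayed between -3.19 and -2.92. Without WT 1 or WT 2 the test called 4 (0.0275%) and 1 (0.00686%) genes, and without IL6-KO 1, 2 or 3 it called 2 (0.0136%), 1 (0.00681%) and 2 (0.0137%). With all 6 libraries DESeq2 called 167 genes (1.1%), and limma-voom with sample quality weights, which gave WT 3 the least weight, called 313 higher (2.16%) and 106 lower (0.732%). An unadjusted p under 0.05 was reached by 1649 genes, 11.4% of those tested.

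The 12 genes with the smallest p on the lower side separated the groups without overlap, which was part of the rule that chose them. Predicted and clone-based symbols were left out by the same rule. Among them, AABR07060872.1 was called lower with no filter on low counts (-1.58, adjusted p = 0.0264). Adamts13, whose enzyme cuts von Willebrand factor and so limits platelet strings on endothelium, stood at 24.5, 13.01 and 12.1 CPM in WT and at 2.25, 2.20 and 1.88 CPM in IL6-KO (-2.97, SE 0.317, adjusted p = 0.0610). WT 1 was the highest library, and without WT 1 or WT 3 Adamts13 was called (adjusted p = 0.0194 and 0.0103). Pla2g2a, a secreted phospholipase of the acute phase that frees fatty acids from membranes and bacteria, stood at 22.2, 21.8 and 32.4 CPM in WT and at 8.15, 8.16 and 7.98 CPM in IL6-KO (-1.65, SE 0.178, adjusted p = 0.0610). Retsat, a retinol saturase of fat and liver, stood at 165, 136 and 168 CPM in WT and at 76.3, 78.1 and 77.0 CPM in IL6-KO (-1.02, SE 0.101, adjusted p = 0.0599). The 3 IL6-KO values of both Pla2g2a and Retsat were close to each other.

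Immune surface and antibody genes were also on the lower side. Siglec5, a sialic-acid receptor of myeloid cells, stood at 23.1, 16.1 and 22.9 CPM in WT and at 3.95, 5.15 and 7.14 CPM in IL6-KO (-1.93, SE 0.248, adjusted p = 0.133). Siglec genes are close relatives whose reads counting can divide, so this value is uncertain. Jchain, the joining chain of secreted IgA and IgM, stood at 33.2, 20.3 and 25.6 CPM in WT and at 8.64, 8.27 and 11.4 CPM in IL6-KO (-1.48, SE 0.215, adjusted p = 0.231). Plasma cells are its main source, and the other plasma cell genes are given below.

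The remaining genes of the lower side act in smooth muscle, coagulation and metabolism. Mrvi1, an effector of the nitric oxide and cyclic GMP pathway that relaxes smooth muscle, stood at 68.6, 72.6 and 87.3 CPM in WT and at 31.5, 39.8 and 43.0 CPM in IL6-KO (-0.997, SE 0.147, adjusted p = 0.231). Serpine2, an inhibitor of thrombin and plasminogen activators, stood at 42.0, 40.4 and 45.4 CPM in WT and at 26.2, 26.1 and 19.8 CPM in IL6-KO (-0.82, SE 0.131, adjusted p = 0.267). Slc2a10, a sugar transporter whose loss causes arterial tortuosity, stood at 18.5, 20.9 and 17.9 CPM in WT and at 7.18, 9.43 and 10.8 CPM in IL6-KO (-1.06, SE 0.17, adjusted p = 0.267). Sec14l2, a lipid transfer protein gene, and Ccdc77, a coiled-coil protein gene, completed the group with -1.09 (adjusted p = 0.281) and -1.22 (adjusted p = 0.0534).

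The 12 genes on the higher side differed by less, from 0.59 to 1.12 on the log2 scale, and none was called. Loxl4, an enzyme that crosslinks collagen and elastin, stood at 10.5, 11.1 and 10.8 CPM in WT and at 26.7, 19.5 and 24.0 CPM in IL6-KO (1.11, SE 0.141, adjusted p = 0.130). Gstt3, a glutathione transferase, stood at 36.2, 33.9 and 56.2 CPM in WT and at 82.6, 90.5 and 100.2 CPM in IL6-KO (1.12, SE 0.198, adjusted p = 0.331). Piezo2, a stretch-gated ion channel, stood at 43.3, 48.3 and 49.0 CPM in WT and at 77.7, 76.1 and 104 CPM in IL6-KO (0.88, SE 0.139, adjusted p = 0.267). With the length correction and all 6 libraries Piezo2 fell to 0.49 (adjusted p = 0.429), while Loxl4 (1.11) and Gstt3 (1.19) did not fall in this way. In these genes, as in the others of the set, every IL6-KO library exceeded every WT library.

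Other genes of the higher side were epithelial, myeloid or of uncertain role in lung. Cyp2f4, a cytochrome of club cells, stood at 47.5, 49.7 and 54.4 CPM in WT and at 78.8, 67.7 and 81.0 CPM in IL6-KO (0.59, SE 0.103, adjusted p = 0.331). Csf3r, the granulocyte colony-stimulating factor receptor of neutrophils, stood at 15.3, 15.2 and 14.5 CPM in WT and at 23.5, 25.4 and 21.7 CPM in IL6-KO (0.65, SE 0.106, adjusted p = 0.267). Mal, a lipid raft protein gene, stood at 20.9, 16.2 and 18.6 CPM in WT and at 30.0, 38.8 and 40.8 CPM in IL6-KO (0.98, SE 0.152, adjusted p = 0.267). Ooep (0.87), Vwa2 (0.93), Nudt12 (0.73), Frmd4a (0.75), Eml6 (0.66) and Mcc_2 (1.08) had adjusted p between 0.128 and 0.331. The length correction lowered Frmd4a to 0.56 and Eml6 to 0.40, while Ooep, Vwa2 and Nudt12 stood at 0.94, 0.91 and 0.70. Mcc_2 is one of 507 split symbols in the table, so its reads may be shared with a second locus.

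**Figure D1:**
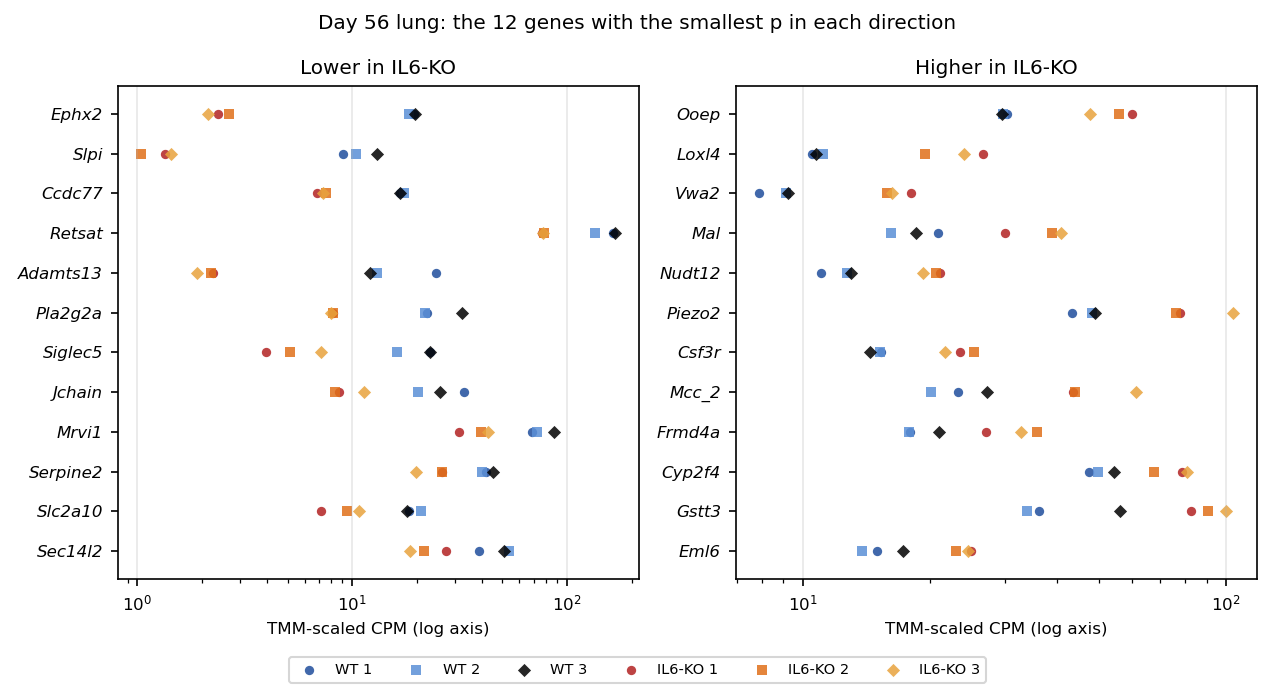
TMM-scaled CPM on a log axis for the 12 genes with the smallest p in each direction, leaving out predicted and clone-based symbols. Each library is 1 point, with WT in blue and black and IL6-KO in red and orange. The groups do not overlap in any of the 24 genes by the rule that chose them, and Ephx2, Slpi and Adamts13 lie farthest apart, with log2 fold changes of -2.99, -3.08 and -2.97.

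Day 7 lungs of the same 2 genotypes, sequenced as a separate table of 6 other libraries, were used to look at the 24 genes in samples that had no part in choosing them. Of the 23 present in that table, 21 had the same sign at day 7 and 9 were called there, all 9 in the day 56 direction, beside 2.09% of all genes called at day 7. The 9 were Retsat, Adamts13, Siglec5, Serpine2, Slc2a10 and Sec14l2 on the lower side and Vwa2, Mal and Gstt3 on the higher side. Gstt3 stood at 31.4, 27.7 and 30.0 CPM in day 7 WT and at 77.7, 79.0 and 89.4 CPM in day 7 IL6-KO (1.47, adjusted p = 0.000109). Retsat stood at 139, 139 and 173 CPM in day 7 WT and at 74.7, 75.3 and 79.5 CPM in day 7 IL6-KO (-0.97, adjusted p = 0.00204). In both genes the genotype difference had nearly the size seen at day 56.

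Slpi was not called at day 7, but its groups did not overlap there. It stood at 6.10, 7.81 and 18.1 CPM in day 7 WT. In day 7 IL6-KO it stood at 0.332, 1.70 and 1.08 CPM (log2 fold change -3.37, adjusted p = 0.0604 in edgeR). Some other genes of the set behaved differently at day 7. Ephx2 stood at 11.5, 10.4 and 1.25 CPM in day 7 WT and at 1.11, 1.94 and 1.95 CPM in day 7 IL6-KO (-2.22, adjusted p = 0.316), so 1 WT library lay at the level of the IL6-KO libraries. Ccdc77 stood at 15.8, 7.04 and 6.37 CPM in day 7 WT, where the second and the third library lay just below the IL6-KO range of 7.07 to 8.81 CPM. Both genes thus took a low level in some WT libraries at day 7 and in none at day 56. Pla2g2a stood at 12.5, 15.1 and 12.9 CPM in day 7 WT and at 14.2, 10.7 and 18.1 CPM in day 7 IL6-KO (0.09, adjusted p = 0.895), and Piezo2 was even too (-0.05, adjusted p = 0.844). A genotype difference of 1 day was tested against that of the other over the 12 libraries, and 0 of 13865 genes passed, with 1043 (7.52%) at an unadjusted p under 0.05. Pla2g2a (-1.73), Socs3 (1.33) and Piezo2 (0.93) had interaction values with adjusted p of 0.122, 0.122 and 0.177. The interaction was fitted without the length correction. When the 12 libraries were fitted together, 20 genes (0.144%) were called at day 56, among them Adamts13 (adjusted p = 0.00347) and Slpi (0.0346) but not Ephx2 (0.0724).

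The called genes were next read within their families. Of 24 tested enzymes that make or break epoxy fatty acids, prostaglandins and leukotrienes, 1 was called, Ephx2, and 5 were lower and 1 higher without overlap (median -0.10). Over all genes 8.55% were lower and 8.3% higher without overlap. Ptgs1, the constitutive cyclooxygenase, stood at 77.3, 73.7 and 73.7 CPM in WT and at 59.1, 56.1 and 52.6 CPM in IL6-KO (-0.42, SE 0.0821, adjusted p = 0.334). Ptgis, the prostacyclin synthase of endothelium, stood at 41.4, 39.2 and 50.4 CPM in WT and at 37.1, 28.1 and 24.2 CPM in IL6-KO (-0.55, SE 0.177, adjusted p = 0.414). Ptgs1 was called without WT 3 (adjusted p = 0.0330), but not with the length correction as well (0.0671). Ptgis was not called without WT 3 (0.176).

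Protease inhibitors of the airway surface did not follow Slpi as a group. Of 12 tested, 1 was called, 3 were lower and 2 higher without overlap, and the median was -0.01. Among all genes these shares were 8.55% and 8.3%. Serpina1, the alpha-1 antitrypsin gene, stood at 15.1, 14.95 and 11.3 CPM in WT and at 31.8, 32.0 and 16.4 CPM in IL6-KO (0.95, SE 0.267, adjusted p = 0.401). Serpina1 inhibits the same neutrophil elastase as Slpi, and the 2 genes lay on opposite sides. At day 7 Serpina1 was called higher in IL6-KO (1.51, adjusted p = 0.0180).

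Genes of haemostasis at the vessel wall held no other member like Adamts13. Of 20 tested, 0 were called and 2 were higher and 2 lower without overlap (median 0.03), beside 8.3% and 8.55% of all genes. F8, coagulation factor VIII, stood at 103, 109 and 108 CPM in WT and at 127, 129 and 144 CPM in IL6-KO (0.32, SE 0.0832, adjusted p = 0.401), a difference that disappeared with the correction for transcript length (-0.02, and -0.15 without WT 3). F3, the tissue factor gene, stood at 156, 179 and 110.3 CPM in WT and at 125, 99.6 and 103 CPM in IL6-KO (-0.44, SE 0.183, adjusted p = 0.432), with overlap at WT 3. Within the Adamts family, 0 of 14 were called and 2, Adamts13 and Adamts8, were lower without overlap.

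Of 23 tested complement genes, 3 were higher and 1 lower without overlap, near the 16.8% of all genes, and 0 were called. C3, the central complement component, stood at 239, 286 and 256 CPM in WT and at 476, 381 and 347 CPM in IL6-KO (0.62, SE 0.139, adjusted p = 0.383). Cfd, the factor D gene that starts the alternative pathway, stood at 18.8, 16.4 and 10.3 CPM in WT and at 8.70, 6.65 and 8.48 CPM in IL6-KO (-0.94, SE 0.239, adjusted p = 0.401). Masp1, a protease of the lectin pathway, stood at 1.35, 3.05 and 4.10 CPM in WT and at 7.12, 6.71 and 7.34 CPM in IL6-KO (1.33, SE 0.357, adjusted p = 0.401). C3 was also higher at day 7 (0.63, adjusted p = 0.0215), whereas Cfd was not lower there (0.27, adjusted p = 0.563).

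The spread between libraries of 1 genotype was wider in WT. The median SD of log2 CPM over the 3 libraries was 0.159 in WT and 0.118 in IL6-KO, and the SD was larger in WT for 61.0% of the 11782 genes. The common biological coefficient of variation fitted in each genotype alone was 20.4% in WT and 16.0% in IL6-KO. WT 3 carried most of the difference: over WT 1 and WT 2 alone the median SD was 0.0801 and the coefficient 12.9%, while the other pairs of WT libraries gave 22.5% and 24.1%. Within WT, 563 genes (4.78%) spanned at least 2-fold and 93 at least 4-fold, against 368 (3.12%) and 58 within IL6-KO. In 387 of the 563 genes WT 3 was the library farthest from the other WT libraries, in 104 it was WT 1 and in 72 WT 2.

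Counting genes at least 2-fold apart in each pair of libraries gave the same picture. WT 1 and WT 2 differed in 123 genes, the fewest of the 15 pairs, but WT 3 differed from them in 410 and 346. WT 3 differed from IL6-KO 1, 2 and 3 in 158, 134 and 246 genes. The 3 pairs within IL6-KO gave 168, 239 and 140, and WT 1 and WT 2 differed from the IL6-KO libraries in 301 to 496 genes. WT 3 was thus about as far from the IL6-KO libraries as these were from each other.

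**Figure D2:**
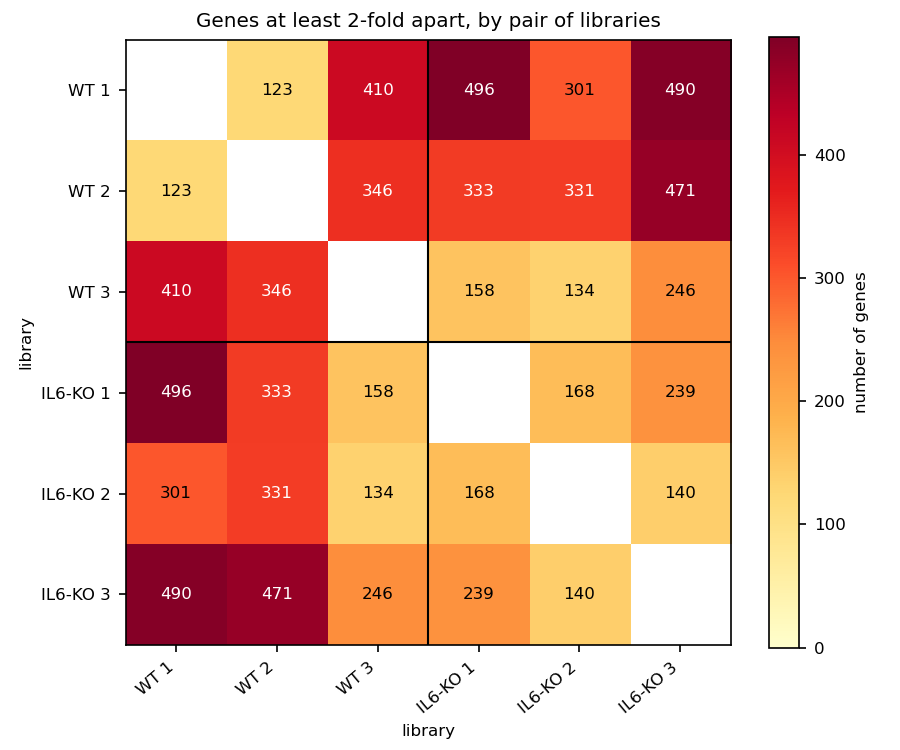
Number of genes at least 2-fold apart in each pair of day 56 libraries, among 11782 genes with a mean of at least 5 CPM, with lines between the genotypes. WT 1 and WT 2 differ in 123 genes, and WT 3 differs in fewer genes from each IL6-KO library (134 to 246) than from WT 1 (410) or WT 2 (346).

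Heart muscle genes were prominent among the genes with the widest WT spread. Myh6, the atrial myosin heavy chain, stood at 2.76, 40.8 and 151 CPM in WT and at 257, 194 and 108 CPM in IL6-KO. Myl7, the atrial regulatory light chain, stood at 1.35, 19.8 and 66.7 CPM in WT and at 98.6, 88.0 and 50.2 CPM in IL6-KO. Actn2 and Mybpc3, structural proteins of the sarcomere, kept the same order of libraries, from 0 and 0.416 CPM in WT 1 to 25.0 and 34.7 CPM in IL6-KO 1. The WT libraries thus covered almost the whole range, with WT 1 lowest and WT 3 inside the IL6-KO range. In rodents the wall of the large pulmonary veins contains atrial-type heart muscle, so lung tissue can hold these transcripts.

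Over the whole cardiac list, 25 of 26 genes were in the table and 21 were tested. Their summed level was 101, 188 and 614 CPM in WT and 939, 732 and 468 CPM in IL6-KO. All 21 had a positive fold change (median 1.43), 0 were called, and 2 were higher without overlap, near the 8.3% of all genes. Without WT 3 the median was 2.73 and 7 were called higher, beside 5.4% of all genes. Among the 7 were Mb, the myoglobin gene (4.23, adjusted p = 0.0267), and Ryr2, the cardiac calcium release channel (3.01, adjusted p = 0.0200). With the length correction as well, 2 of 22 were called, with Mb among them (adjusted p = 0.0431) and Ryr2 not (0.0660). That fit called 1.34% of all genes. The ventricular light chain genes Myl2 and Myl3 held 0 to 3 and 1 to 5 counts per library, while the count of the atrial Myl4 was 18, 152 and 347 in WT against 567, 476 and 297 in IL6-KO. At day 7, Myh6 ranged from 114 to 193 CPM over the 6 libraries, so WT 1 and WT 2 of day 56 were the low ones among 12 lungs. The amount of vein or heart tissue in each sample was not measured, and its part in the genotype differences was not tested.

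A second set of genes set WT 3 and IL6-KO 1 apart from the other 4 libraries together. Dbp, an output gene of the circadian clock, stood at 5.72, 6.50 and 118 CPM in WT and at 122, 14.2 and 6.45 CPM in IL6-KO. After this was seen, 17 clock genes were looked up. Nr1d1, which encodes the repressor REV-ERB alpha, stood at 15.2, 43.4 and 195 CPM in WT and at 250.2, 74.5 and 24.3 CPM in IL6-KO. Per3, a period gene, stood at 20.1, 30.3 and 127 CPM in WT and at 148, 41.8 and 34.2 CPM in IL6-KO, and Tef, a relative of Dbp, at 103, 121 and 321 CPM in WT and 325, 121 and 110.5 CPM in IL6-KO. Genes of the opposite arm of the clock were low in the same libraries. Arntl, which encodes the activator BMAL1, stood at 54.9, 47.2 and 11.2 CPM in WT and at 7.54, 45.2 and 58.1 CPM in IL6-KO, and Npas2, its partner, at 65.4, 69.0 and 18.3 CPM in WT and 20.7, 66.9 and 72.9 CPM in IL6-KO.

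WT 3 and IL6-KO 1 were thus alike in clock genes, 1 from each genotype, and 0 of the 17 were called or had groups without overlap. Over all genes 0.0138% were called and 16.8% had groups without overlap. In the 6 day 7 libraries Dbp ranged from 5.64 to 8.60 CPM and Arntl from 47.8 to 56.5 CPM, near the other 4 libraries of day 56. The labels give no hour of tissue collection, so its part in the spread was not tested.

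The promoters of 4 of these genes are shown because the clock acts through short elements in them. BMAL1 and its partners bind the E-box CACGTG, and REV-ERB proteins bind elements that contain AGGTCA. Both were searched on both strands of the same RefSeq windows of build GRCr8. The E-box occurred in 6.42% of all windows and in at least 1 window of 5 of the 15 clock genes that have one, and AGGTCA occurred in 16.2% of all windows and for 2 of the 15. Capitals mark the E-box in the first 3 sequences, from genes high in WT 3 and IL6-KO 1, and AGGTCA in the fourth, from the gene low there.
Ciart promoter, chr2:186112197-186112496, minus strand: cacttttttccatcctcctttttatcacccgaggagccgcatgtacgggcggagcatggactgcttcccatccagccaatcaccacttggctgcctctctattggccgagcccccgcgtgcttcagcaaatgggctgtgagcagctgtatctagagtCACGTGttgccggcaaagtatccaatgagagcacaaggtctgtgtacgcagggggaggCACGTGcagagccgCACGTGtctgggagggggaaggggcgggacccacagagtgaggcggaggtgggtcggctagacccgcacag
Tef promoter, chr7:115206577-115206876, plus strand: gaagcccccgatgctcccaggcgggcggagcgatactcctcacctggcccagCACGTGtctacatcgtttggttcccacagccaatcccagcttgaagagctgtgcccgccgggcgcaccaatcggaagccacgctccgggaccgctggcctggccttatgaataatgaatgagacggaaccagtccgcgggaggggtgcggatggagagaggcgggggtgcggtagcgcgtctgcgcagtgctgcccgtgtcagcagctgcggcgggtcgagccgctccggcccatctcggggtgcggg
Nr1d1 promoter, first of 2 windows, chr10:84229405-84229704, minus strand: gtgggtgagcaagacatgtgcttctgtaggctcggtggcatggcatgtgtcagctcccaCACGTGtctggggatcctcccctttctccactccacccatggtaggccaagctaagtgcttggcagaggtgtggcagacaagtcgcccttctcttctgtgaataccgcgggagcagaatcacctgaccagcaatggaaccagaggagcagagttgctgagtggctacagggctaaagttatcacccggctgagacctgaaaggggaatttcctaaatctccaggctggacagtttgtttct
Bmal1 (Arntl) promoter, chr1:176766078-176766377, plus strand: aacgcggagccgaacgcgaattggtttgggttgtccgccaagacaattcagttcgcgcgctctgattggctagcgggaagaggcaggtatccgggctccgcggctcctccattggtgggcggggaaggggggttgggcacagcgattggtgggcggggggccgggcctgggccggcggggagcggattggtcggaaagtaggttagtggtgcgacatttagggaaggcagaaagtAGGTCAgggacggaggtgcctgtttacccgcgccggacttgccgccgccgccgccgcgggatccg
Ciart, a repressor of the clock, held 3 E-boxes and stood at 1.14, 1.68 and 5.84 CPM in WT and at 8.09, 0.926 and 0.793 CPM in IL6-KO. Bhlhe40 and Bhlhe41, whose windows also held the E-box, and Nr1d2, whose window also held AGGTCA, are not shown. The windows of Dbp and Per3, which varied as widely, held neither element, and these matches describe letters only.

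Further genes of wide WT spread had orders of their own. Bpifa1, a secreted defence protein of the upper airway, stood at 1.77, 13.5 and 70.9 CPM in WT and at 79.6, 77.1 and 60.9 CPM in IL6-KO, the order of the heart muscle genes in WT. Ifit1, an interferon-induced gene, stood at 0.520, 13.01 and 35.6 CPM in WT and at 24.6, 21.3 and 0.694 CPM in IL6-KO, and Gp2, a receptor of specialised epithelium, at 12.2, 2.12 and 61.7 CPM in WT and 3.53, 8.27 and 55.2 CPM in IL6-KO. Hspa1a, an inducible heat shock gene, ranged from 0 CPM in WT 3 to 32.6 CPM in WT 2. Aldh18a1 and Dsg3 also had a library at or near 0 beside others above 10 CPM. These genes were among the 12 named for the widest spread within WT, and none was called by genotype.

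The IL6-KO libraries had outlying genes of their own. Cyp1a1 and Cyp1b1, cytochromes induced through the aryl hydrocarbon receptor, stood at 4.07 and 23.6 CPM in IL6-KO 3. In the other 5 libraries Cyp1a1 ranged from 1169 to 1873 CPM and Cyp1b1 from 658 to 1282 CPM. Lyc2, a lysozyme gene, stood at 12.1, 335 and 714 CPM in IL6-KO and at 12.6 to 18.4 CPM in WT, and Zbtb16, a transcription factor induced by glucocorticoids, at 195 CPM in IL6-KO 1 and 6.05 to 29.4 CPM elsewhere. Lysozyme genes are near copies of each other, so counting may move reads between them. At day 7 the same Lyc2 pattern had the other shape, with 227 to 255 CPM in the 3 WT libraries and IL6-KO 1 at 246 CPM, but 8.36 and 9.58 CPM in IL6-KO 2 and 3.

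A group of poorly annotated loci separated WT 1 and WT 2 from all others. The 4 entries of LOC257642 and 5 clone-named loci with the same pattern, grouped after it was seen, summed to 1997, 2303 and 110.1 CPM in WT and to 136, 175 and 94.1 CPM in IL6-KO over the 9 entries. All 7 tested entries were called lower without WT 3 and 0 with it, and since reads may be divided among such entries they are not separate observations. Ribosomal protein genes had a smaller difference, at 2.88%, 2.76% and 2.30% of counts in WT and 2.16%, 2.29% and 2.05% in IL6-KO. Here WT 3 was the lowest WT library but still above every IL6-KO library. Rps9 stood at 395, 421 and 398 CPM in WT and at 311, 312 and 301 CPM in IL6-KO (-0.39, SE 0.08, adjusted p = 0.349), and Rplp2 at 68.4, 71.9 and 47.2 CPM in WT and 38.4, 43.1 and 34.3 CPM in IL6-KO (-0.70, SE 0.174, adjusted p = 0.398). Of 65 ribosomal protein genes tested, 37 were lower without overlap, 0 were called, and 32 were called lower without WT 3. The share of all genes lower without overlap was 8.55%, and the share called lower without WT 3 was 3.23%. Most ribosomal protein transcripts are short, and with the length correction and no WT 3 the test called 4 of 64 lower. That fit called 1.34% of all genes in either direction. The list's median of -0.31 became -0.14 with the length correction and all 6 libraries. Mitochondrial transcripts made up 4.05% to 4.55% of counts.

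**Figure D3:**
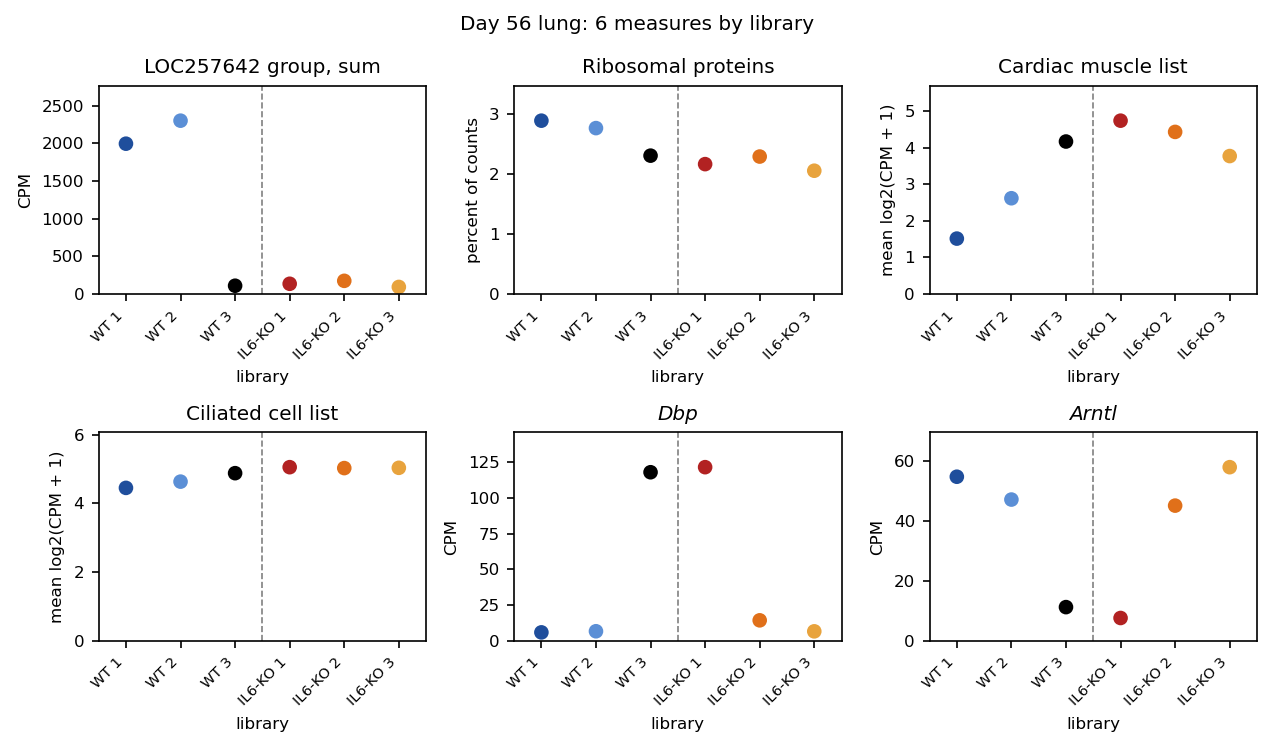
The 6 measures by library, with the dashed line between WT and IL6-KO and all axes from 0: the summed CPM of the LOC257642 loci, the percent of counts in ribosomal protein genes, the mean log2(CPM + 1) of the cardiac and ciliated cell lists, and the CPM of Dbp and Arntl. WT 3 sits with the IL6-KO libraries for the LOC257642 loci (110.1 CPM) and the cardiac list, and with IL6-KO 1 alone for the clock genes Dbp (118 and 122 CPM) and Arntl (11.2 and 7.54 CPM).

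Without WT 3 the test called 1268 of 14689 genes (8.63%), 793 higher (5.4%) and 475 lower (3.23%) in IL6-KO. WT 3 itself, which this test did not use, lay nearer to the IL6-KO mean than to the mean of WT 1 and WT 2 in 1131 of the 1268 genes (89.2%). Over the 11782 genes with a mean of at least 5 CPM, WT 3 lay nearer to WT in only 31.8%. The 1268 genes thus mostly describe WT 1 and WT 2 against the other 4 libraries, and the calls rest on the choice to leave WT 3 out. With WT 3 counted again, 498 of the 1268 had groups that did not overlap, beside 16.8% of all genes. The 1268 were chosen for a difference of WT 1 and WT 2 from IL6-KO, so this count was partly set by that choice. No label gives a reason to leave WT 3 out.

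The called genes differed in transcript length, taken from the mouse gene of the same symbol, which 88.4% of the tested genes had. The median length was 7127 bases for the genes called higher, 1751 bases for those called lower and 3179 bases for all tested genes. Among 616 genes over 8000 bases, 41.2% were called higher without WT 3, and among 453 genes under 1000 bases, 17.9% were called lower. Long genes lay low in WT 1 and WT 2, with a median deviation from the gene's mean of -0.32 and -0.29 on the log2 scale, and above it in WT 3 (0.13) and the IL6-KO libraries (0.14, 0.10 and 0.26). RNA integrity was not in the labels, and its part in this pattern was not tested.

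When each library's trend with length was taken out, the count without WT 3 was 174 of 12947 genes (1.34%), 85 higher and 89 lower. Of the 174, 144 were also among the 1268, all in the same direction. With all 6 libraries and the length correction 7 genes were called (0.0547%): Ephx2, Slpi, Adamts13, Ccdc77, Mrvi1 and Retsat lower and Ooep, a maternal-effect gene of the oocyte, higher. Ooep stood at 30.5, 29.7 and 29.6 CPM in WT and at 60.1, 55.9 and 47.7 CPM in IL6-KO. This correction was chosen after the data were seen.

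**Figure D4:**
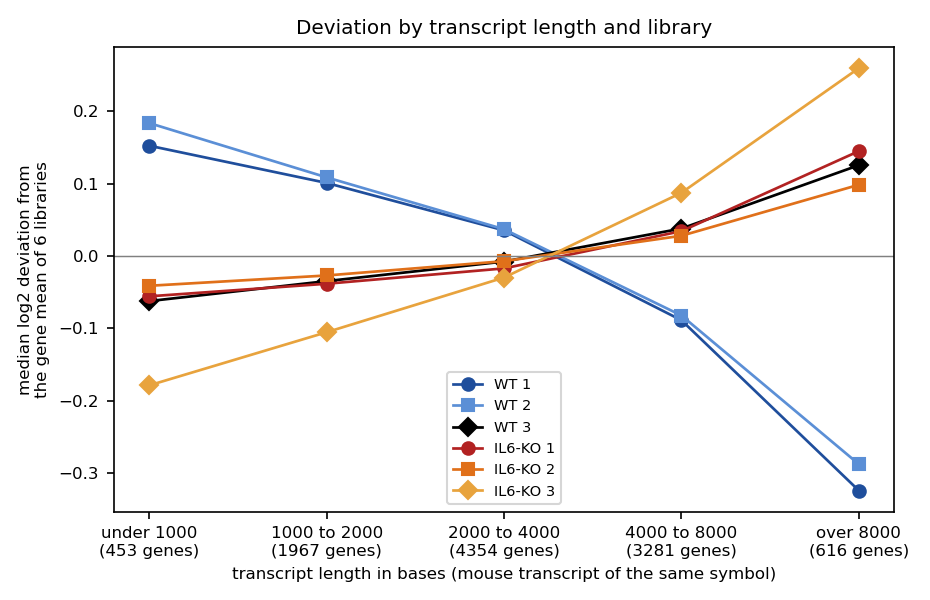
Median log2 deviation of each library from the gene's mean over the 6 libraries, by transcript length of the mouse gene with the same symbol. WT 1 and WT 2 fall from short to long genes, to -0.32 and -0.29 over 8000 bases, while WT 3 and the IL6-KO libraries rise to between 0.10 and 0.26.

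Among the named genes with the largest fold changes without WT 3, the lower side held Adamts13 (-3.15), Ephx2 (-2.97) and Slpi (-2.92) again. Myh9, nonmuscle myosin IIA, stood at 361, 241 and 89.8 CPM in WT and at 31.7, 68.4 and 18.4 CPM in IL6-KO (-2.55 with all libraries, SE 0.663, adjusted p = 0.401). Cebpd, an acute-phase transcription factor that STAT3 induces, stood at 102, 119 and 22.0 CPM in WT and at 34.4, 20.6 and 35.9 CPM in IL6-KO, so WT 3 lay among the IL6-KO values. Without WT 3 it was called lower (-1.86, adjusted p = 0.0177), and with it the fold change was -1.42 (adjusted p = 0.436). Scand1, Best1 and Dr1 had the same shape, with WT 3 below every IL6-KO library. On the higher side stood the heart genes Mb, Ryr2, Fabp3, Cmya5 and Mybphl, the airway genes Scgb3a1 and Dnah5, and Yme1l1, Lpp and Vps13a.

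Genes of the airway epithelium lay mostly on the higher side. Of 21 tested genes of ciliated cells, 20 had a positive fold change (median 0.31) and 8 were higher without overlap, beside 8.3% of all genes. The dynein heavy chain genes of the ciliary motor led the list. Dnah9 stood at 33.7, 35.4 and 53.3 CPM in WT and at 72.6, 69.1 and 75.2 CPM in IL6-KO (0.83, SE 0.177, adjusted p = 0.381), and Dnah11 at 34.8, 34.6 and 47.8 CPM in WT and 61.1, 59.5 and 66.8 CPM in IL6-KO (0.68, SE 0.144, adjusted p = 0.367). These are very long transcripts, and the length trend above moves in the same direction. Without WT 3, 9 of the 21 were called higher, beside 5.4% of all genes. With the length correction as well, 3 of the 19 with a length were called higher, beside 1.34% of all genes in either direction. At day 7 neither Dnah9 (0.26, adjusted p = 0.553) nor Dnah11 (0.12, adjusted p = 0.809) was called.

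Genes of secretory airway cells were read next. Scgb3a1, a secretoglobin of the larger airways, stood at 26.7, 62.9 and 74.5 CPM in WT and at 167, 196 and 228 CPM in IL6-KO (1.85, SE 0.353, adjusted p = 0.334). Muc5b, the main gel-forming mucin of small airways, stood at 6.71, 34.9 and 51.1 CPM in WT and at 67.4, 71.8 and 114 CPM in IL6-KO (1.45, SE 0.653, adjusted p = 0.449). WT 1 was the lowest library for both, as it was for Bpifa1 and the heart genes. Of 19 tested genes of club and secretory cells 4 were higher without overlap and 0 lower (median 0.25), beside 8.3% and 8.55% of all genes. Without WT 3 the test called 2 higher, beside 5.4% of all genes. With the length correction as well it called 0 of 18, beside 1.34% of all genes. How much large airway each sample held was not measured.

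Of 15 genes of alveolar type 1 cells, the thin cells of gas exchange, 5 were higher without overlap (median 0.10), beside 8.3% of all genes. Without WT 3 the test called 4 higher, beside 5.4% of all genes. With the length correction as well it called 1 of the 15 higher, beside 1.34% of all genes in either direction. Col4a3, a basement membrane collagen, stood at 167, 202 and 248 CPM in WT and at 386, 296 and 347 CPM in IL6-KO (0.73, SE 0.166, adjusted p = 0.383), and Akap5, an anchoring protein gene, at 176, 216 and 247 CPM in WT and 359, 289 and 395 CPM in IL6-KO (0.71, SE 0.163, adjusted p = 0.383). Type 2 cell genes had 1 of 19 higher and 1 lower without overlap (median -0.01).

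T cell identity genes lay mostly on the lower side. Of 17 tested T cell identity genes, 7 were lower without overlap, beside 8.55% of all genes, 0 were called and the median was -0.56. Cd3e, a chain of the T cell receptor complex, stood at 12.4, 9.78 and 8.89 CPM in WT and at 4.32, 5.96 and 5.60 CPM in IL6-KO (-0.97, SE 0.197, adjusted p = 0.349). Lat, an adaptor of T cell receptor signalling, stood at 18.4, 12.9 and 8.89 CPM in WT and at 6.02, 8.33 and 7.34 CPM in IL6-KO (-0.89, SE 0.272, adjusted p = 0.409). WT 1 was the highest and IL6-KO 1 the lowest library for Cd3e, Lat and Cd6. Over the list the mean log2(CPM + 1) was 3.40, 3.09 and 3.21 in WT and 2.52, 3.13 and 2.90 in IL6-KO, so IL6-KO 2 reached the WT range. The list's median ran from -0.72 to -0.31 when 1 library was left out, with -0.31 without IL6-KO 1. Without WT 3, 2 of the 17 were called lower, beside 3.23% of all genes. With the length correction as well, 0 of the 16 with a length were called, beside 1.34% of all genes. Cytotoxic and NK cell genes had 1 of 18 lower without overlap (median -0.21), and T helper genes 2 of 16 higher and 1 lower (median -0.21).

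B cells, plasma cells and lymphoid follicles had fewer separated genes. Of 18 B cell genes 2 were lower without overlap (median -0.36), of 10 plasma cell genes 2 were lower and 1 higher (median -0.23), and of 13 genes of follicle chemokines and their receptors 2 were lower (median -0.34). The shares of all genes were 8.55% lower and 8.3% higher. Mzb1, a chaperone of antibody-secreting cells, stood at 5.98, 5.04 and 3.75 CPM in WT and at 1.89, 3.18 and 2.53 CPM in IL6-KO (-0.96, SE 0.271, adjusted p = 0.401). Cxcl13, the chemokine that draws B cells into follicles, stood at 14.0, 9.47 and 8.20 CPM in WT and at 8.88, 7.93 and 3.02 CPM in IL6-KO (-0.68, SE 0.398, adjusted p = 0.495), with overlap. Ccr7, the homing receptor of naive T cells and mature dendritic cells, stood at 10.8, 8.49 and 12.9 CPM in WT and at 4.75, 8.27 and 7.04 CPM in IL6-KO (-0.67, SE 0.246, adjusted p = 0.414). At day 7 Jchain, Mzb1, Cxcl13 and Ccr7 had log2 fold changes of -0.82, 0.09, 0.11 and 0.06, and none was called.

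Of 9 MHC class II genes, which present antigen, 4 were lower and 0 higher without overlap (median -0.29), beside 8.55% and 8.3% of all genes. Cd74, the invariant chain of class II, stood at 2000.02, 1910.2 and 1733 CPM in WT and at 1417, 1531 and 1386 CPM in IL6-KO (-0.38, SE 0.1, adjusted p = 0.401). RT1-Db1, a class II beta chain, stood at 299.6, 290.1 and 409 CPM in WT and at 214, 258 and 196 CPM in IL6-KO (-0.58, SE 0.166, adjusted p = 0.401). Genes of the RT1 family are similar to each other and vary between rat strains, so their counts are uncertain. Lgals3, the galectin 3 gene of macrophages, stood at 273, 316 and 265 CPM in WT and at 211, 202 and 175 CPM in IL6-KO (-0.54, SE 0.112, adjusted p = 0.353), and was also lower at day 7 (-0.64, adjusted p = 0.0181). Adgre1, the F4/80 antigen, was higher, with 11.6, 9.29 and 14.9 CPM in WT and 15.2, 24.2 and 25.2 CPM in IL6-KO (0.86, SE 0.245, adjusted p = 0.401). Of 22 macrophage genes 3 were higher and 1 lower without overlap, near the 16.8% of all genes, and 0 were called.

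Genes of the vessel wall were read as endothelial, capillary and smooth muscle lists, and 0 genes of the 3 were called. Endothelial genes had 3 of 22 higher and 0 lower without overlap (median 0.02), and their summed level was 8283 to 9757 CPM in WT and 8858 to 9513 CPM in IL6-KO. Genes of capillary subtypes had 3 of 16 higher and 1 lower without overlap (median 0.24), and without WT 3 the test called 2 higher and 1 lower. Over all genes 8.3% were higher without overlap, and 5.4% were called higher and 3.23% lower without WT 3. Smooth muscle contractile genes had 7 of 22 lower without overlap (median -0.21), against 8.55% of all genes. Acta2, the smooth muscle actin, stood at 371, 281 and 373 CPM in WT and at 278, 258 and 198 CPM in IL6-KO (-0.48, SE 0.164, adjusted p = 0.414). Cnn1, calponin, stood at 68.4, 52.6 and 75.1 CPM in WT and at 51.4, 41.6 and 27.5 CPM in IL6-KO (-0.70, SE 0.237, adjusted p = 0.414). IL6-KO 3 was the lowest library for both, while WT 2 lay close to IL6-KO 1.

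Genes of BMP receptor signalling, the pathway most often mutated in heritable pulmonary hypertension, had 0 of 26 called (median -0.01). Bmpr2, the receptor gene itself, stood at 155, 139.9 and 252 CPM in WT and at 299, 296 and 342 CPM in IL6-KO (0.78, SE 0.219, adjusted p = 0.401). All IL6-KO values lay above WT, with WT 3 between the groups, and without WT 3 Bmpr2 was called (1.09, adjusted p = 0.0102). After the length correction without WT 3, 0 of the 26 were called, beside 1.34% of all genes. Grem1, a secreted antagonist of BMPs, stood at 3.02, 5.22 and 8.55 CPM in WT and at 1.83, 2.43 and 0.892 CPM in IL6-KO (-1.70, SE 0.479, adjusted p = 0.401). Ace, the angiotensin converting enzyme of capillary endothelium, stood at 887, 950.3 and 1096 CPM in WT and at 1429.6, 1336 and 1304 CPM in IL6-KO (0.47, SE 0.11, adjusted p = 0.383), and was higher at day 7 (0.37, adjusted p = 0.0321).

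Of the matrix, proliferation, interferon and chemokine lists 0 genes were called. Extracellular matrix genes had 2 of 30 higher and 4 lower without overlap. Their median was 0.00, but -0.19 with the length correction and -0.28 with WT 3 also left out. Bgn, biglycan, had the smallest p among them, at 879, 806 and 848 CPM in WT and 575, 683 and 554 CPM in IL6-KO (-0.48, SE 0.11, adjusted p = 0.383). Proliferation genes had 5 of 29 lower and 1 higher without overlap (median -0.10), beside 8.55% and 8.3% of all genes. Interferon response genes had 0 of 28 in either direction (median 0.09) and chemokines 3 of 29 lower (median -0.27). Ccl24, an eosinophil chemokine, stood at 6.34, 5.09 and 4.17 CPM in WT and at 2.07, 3.12 and 3.12 CPM in IL6-KO (-0.91, SE 0.251, adjusted p = 0.401), and was lower at day 7 (-0.96, adjusted p = 0.0415). Neutrophil genes had 2 of 14 higher without overlap, Csf3r and Cd177, and mast cell and eosinophil genes 1 of 12, Hdc.

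Some platelet genes were low but separated. Tubb1, the tubulin of platelets and megakaryocytes, stood at 0.312, 0.885 and 0.347 CPM in WT and at 2.98, 1.74 and 2.73 CPM in IL6-KO (2.20, SE 0.451, adjusted p = 0.353). Of 16 platelet genes 4 were higher and 2 lower without overlap (median 0.25), and of 12 erythroid genes 3 were higher and 0 lower (median 0.54). The shares of all genes were 8.3% higher and 8.55% lower without overlap. The blood left in each lung was not measured, and its part was not tested.

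**Figure D5:**
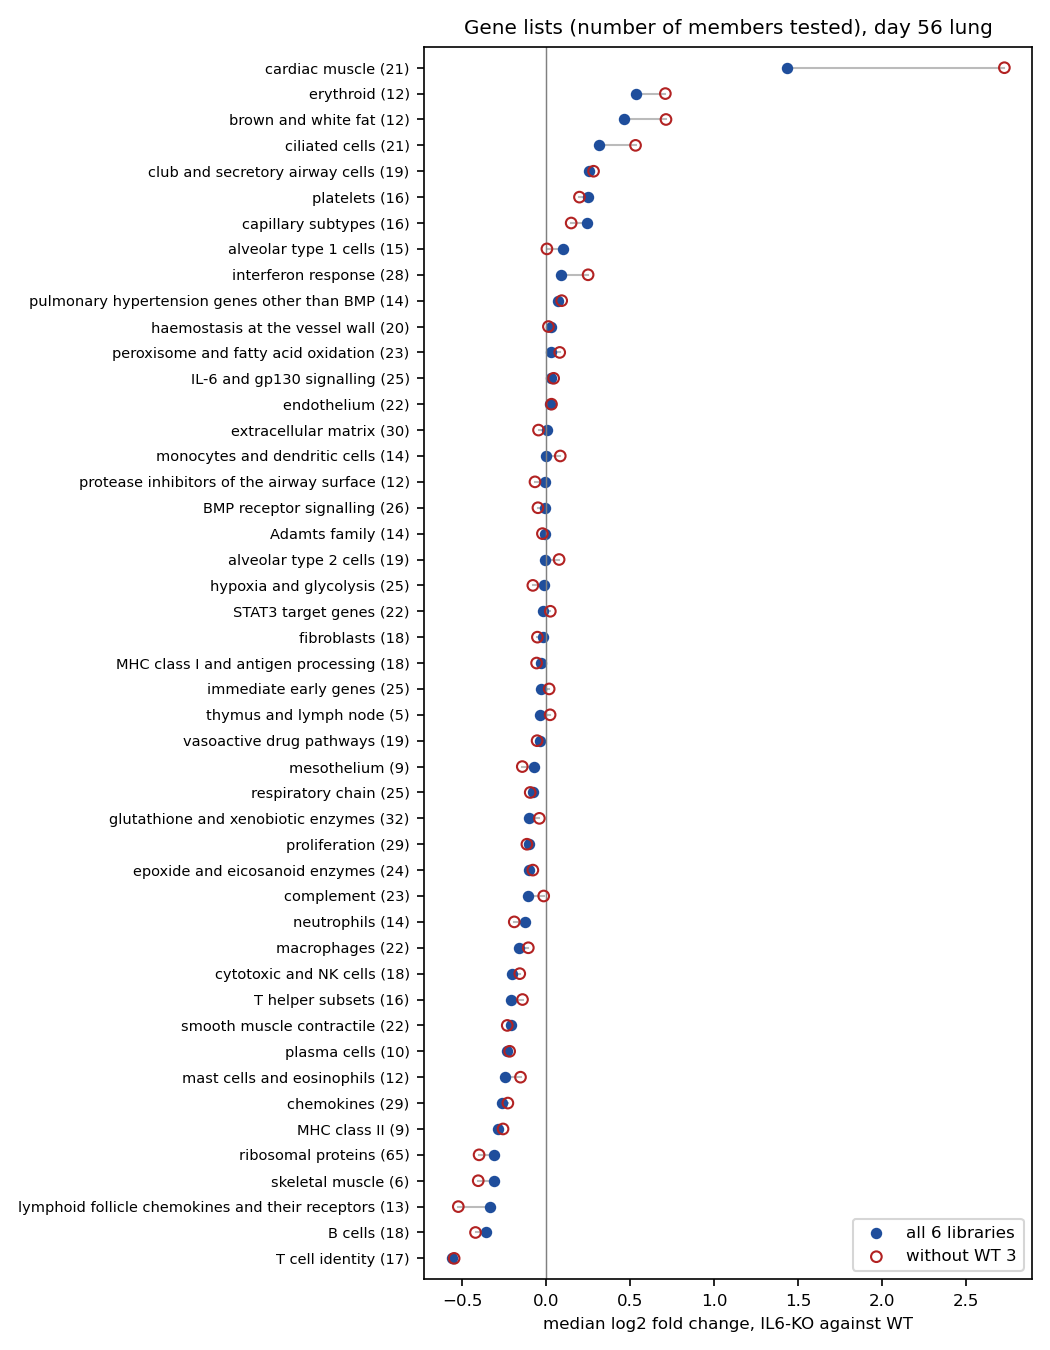
Median log2 fold change (IL6-KO against WT) of the tested members of 47 gene lists, in all 6 libraries (filled) and without WT 3 (open), with the number of members tested in brackets. The cardiac list lies farthest above 0 (1.43, and 2.73 without WT 3) and the T cell identity list farthest below (-0.56), while the IL-6 and gp130 list lies at 0.03.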

How the data were processed

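Bulk RNA of whole lung was sequenced on Illumina instruments. The authors deposited whole-number counts per gene symbol, with no normalization, per the file headers. The submitters' processing notes name the mouse build GRCm38 although the samples are rat, with the aligner and counter not given in the sources used here. From these counts, CPM were computed with TMM scaling, genes were filtered with filterByExpr, and IL6-KO was tested against WT with edgeR 4.0.16 (robust quasi-likelihood test) in R 4.3.3, with Benjamini-Hochberg adjustment over all tested genes and a threshold of 0.05. Day 7 lung was fitted alone, and the interaction over 12 libraries. The fits were tested on simulated data.

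The named genes were the 12 with the smallest p in each direction among genes without overlap of the groups and a mean of at least 1 CPM, members of fixed lists, and genes with the widest spread within a genotype or the largest fold changes without WT 3. Predicted and clone-based symbols, such as LOC, RGD and AABR, were left out when genes were ranked by p, spread or fold change. The members and lists were chosen with earlier results of these data known, and 3 lists (clock genes, male-specific genes, the LOC257642 loci) were added after values were seen. The comparison groups do not overlap where every library of 1 lies above every library of the other. Alternatives were DESeq2 1.42.0, limma 3.58.1 (voom, also with sample quality weights), RLE scaling, other filters, a fold threshold, the replicate block, a 12-library fit and leaving out each library. A transcript length offset from mouse genes of the same symbol (GENCODE) was added after seeing the data. Promoter windows and gene order came from RefSeq, build GRCr8. Library totals allow a floor of 3 counts, 0.131 to 0.208 CPM, for a count of 0, which covers counting error only. An RNA quality list had no gene in the table.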

Additional observations from a re-analysis of the deposited data

How the results depend on the processing

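At day 56, 2 genes were called, and the number depended on the method: 167 with DESeq2, 4 with limma-voom, 419 with limma-voom and sample quality weights (313 higher, 106 lower), 7 with no filter on low counts, 20 with all 12 lung libraries in 1 fit, and 1 to 1268 when 1 library was left out, the highest without WT 3. Of the 419 genes, 409 were among the 1268. With the transcript length offset 7 were called, 174 with WT 3 also left out, and 4 in the genes that have a length without the offset. At day 56, replicate numbers did not pair the samples (correlations of same-numbered deviations -0.23, -0.11 and 0.01). On that day no WT library correlated best with the IL6-KO library of its own number. Pairing by replicate number was not checked at day 7. With the replicate block 0 genes were called at day 56, where Ephx2 had an adjusted p of 0.124 and Slpi 0.196, 543 at day 7 and 0 for the interaction. The median WT spread of 0.159 moved to between 0.0801 and 0.160 when a WT library was left out. At day 7, 300 genes were called, 551 with DESeq2, and 94 to 372 when 1 library was left out. The interaction went from 0 genes to 45 with DESeq2 and to between 0 and 597 when 1 library was left out, with 597 without day 56 WT 3. The Il6r fold change ranged from -0.18 to 0.25 when 1 library was left out, below 0 without WT 2 (-0.04) and without IL6-KO 1. That of F8 turned with the length offset (-0.021) and with WT 3 also left out (-0.15). The causes were not tested, beyond what each setting changes by construction. Il6, with counts near the floor of 3, was too low to be tested at this depth, so these fits give no result for it.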
